A study of Mus musculus with 13 samples.

Results

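The 10 genes described here encode the core transcription factors of the developing heart: Nkx2-5, Gata4, Gata5, Gata6, Tbx5, Tbx20, Mef2c, Hand1, Hand2 and Isl1. They were taken by symbol from the 27998 genes of the count tables, and all 10 were found. Wild-type C57Bl/6J mice were sampled by droplet single-cell RNA sequencing for a study of how the cardiac conduction system develops. E8.5 and E10.5 samples were whole embryos without head and limbs, while later samples were hearts (E12.5, E14.5 and E16.5, then 3 days after birth, P3), and no animal carried a transgene, a mutation or a treatment. Each of E10.5, E12.5, E14.5 and E16.5 gave 2 libraries, which the series text calls biological replicates. Their titles give both libraries of a stage the same replicate number, so separate animals and 2 captures of 1 sample cannot be told apart from the labels, and the first E16.5 library pools 2 sample records. E8.5 is represented by replicate 2 (replicate 1 was not analysed here), and P3 by 1 table that pools both samples, so E8.5 and P3 values carry counting error only and no test.

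These factors form a recursive network in which homeodomain, GATA zinc-finger, T-box, MADS-box and basic helix-loop-helix proteins bind together at the regulatory elements of contractile, ion channel and peptide hormone genes and at those of one another. Isl1 marks the progenitors of the second heart field, which add the outflow tract, right ventricle and much of the atria to the early tube. Nkx2-5 is retained in the myocardium, Tbx5 patterns the atria and left ventricle, Hand1 the outer curvature of the left ventricle, and several of the factors also act in the endocardium, the valve cushions and the epicardium. Human dosage defects in this group underlie many septal and conduction disorders.

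The promoter windows of 4 members are shown because these 4 differed plainly in pattern: a level almost restricted to cardiomyocytes (Nkx2-5), a decline in all 3 cell classes (Gata5), a loss from cardiomyocytes between embryo and heart (Isl1) and a level shared by all heart classes (Hand2). Each is the 250 bases upstream of a RefSeq transcript start (GRCm38.p6), read 5′ to 3′ on the gene's strand. Capitals mark matches on either strand to a GATA motif (AGATAA or TGATAA), an NK2 motif (AAGTG) or a T-box motif (AGGTGT). Nkx2-5 lies at chr17:26841566-26841815 and Gata5 at chr2:180334680-180334929, both on the minus strand and both inside the longer span of their gene. Isl1 lies at chr13:116309689-116309938 on the minus strand and Hand2 at chr8:57320733-57320982 on the plus strand.
Nkx2-5: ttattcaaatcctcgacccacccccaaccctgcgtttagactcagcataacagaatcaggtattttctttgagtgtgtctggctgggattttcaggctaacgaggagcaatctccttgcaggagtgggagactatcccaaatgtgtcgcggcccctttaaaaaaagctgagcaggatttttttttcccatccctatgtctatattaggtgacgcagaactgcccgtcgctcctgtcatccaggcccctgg
Gata5: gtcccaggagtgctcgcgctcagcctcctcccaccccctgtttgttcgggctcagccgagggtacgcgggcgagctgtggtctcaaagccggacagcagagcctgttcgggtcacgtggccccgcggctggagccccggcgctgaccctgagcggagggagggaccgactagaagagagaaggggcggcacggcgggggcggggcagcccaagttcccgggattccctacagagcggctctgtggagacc
Isl1: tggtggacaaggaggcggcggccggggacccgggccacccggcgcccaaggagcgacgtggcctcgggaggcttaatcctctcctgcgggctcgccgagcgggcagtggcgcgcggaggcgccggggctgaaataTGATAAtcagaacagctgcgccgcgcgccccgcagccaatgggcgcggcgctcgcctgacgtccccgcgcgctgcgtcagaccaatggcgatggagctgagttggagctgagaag
Hand2: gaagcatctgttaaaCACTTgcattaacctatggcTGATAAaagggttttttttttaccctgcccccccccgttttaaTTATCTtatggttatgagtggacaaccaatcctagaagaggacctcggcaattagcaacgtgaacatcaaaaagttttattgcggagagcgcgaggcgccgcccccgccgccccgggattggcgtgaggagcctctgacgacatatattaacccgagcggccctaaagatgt

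The Hand2 window held 2 GATA matches, at 215 and 172 bases before the start, and 1 NK2 match at 235 bases before it. The Isl1 window held 1 GATA match at 115 bases before the start. No letters of these 3 motifs were found in the Nkx2-5 and Gata5 windows, which each had 1 E-box (CANNTG, not capitalised, a motif that an AAGTG match can overlap). Among 32851 mouse promoter windows of this length, 16.6% held the GATA motif, 40.7% the NK2 motif, 11.8% the T-box motif and 66.2% the E-box. Gata6, on chromosome 18, was left out of this search. Of the other members 6, with 8 windows, were matched in the RefSeq promoter table, and Hand2 and Isl1 were the 2 of these with a GATA match. A match describes letters in a window and not a bound site.

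Barcodes with at least 2000 UMIs were kept (4928 to 14675 per table, 80741 in all, from total depths of 67141166 to 259041468 UMIs). Cardiomyocytes were barcodes with at least 1500 CPM (counts per 1000000) of the troponin gene Tnnt2 in hearts or 500 in embryos. Endothelium passed a gate on the cadherin gene Cdh5, and mesenchyme one on the collagen gene Col1a1. Levels below are the UMIs of a gene per 1000000 UMIs summed over a class of 1 library. The endothelium list of 8 genes summed to 1872 to 3634 CPM in the endothelium and 31.2 to 117 CPM in cardiomyocytes. The cardiomyocyte list of 10 genes summed to 15173 to 45216 CPM in cardiomyocytes. These lists include the gate genes Cdh5 and Tnnt2, so the gates set part of the gaps between classes. In the endothelium the cardiomyocyte list summed to 603 to 927 CPM at E12.5 to E16.5, with all 10 genes above 0, and in mesenchyme to 656 to 1348 CPM. The same cardiomyocyte list reached 291 to 755 CPM in erythroid barcodes of these hearts, a class that should lack all of the members. Some low levels outside cardiomyocytes are therefore set beside the erythroid level. Others, among them those of Isl1, are given without it and were not set against a background. Pairs of libraries shared 27 to 264 barcodes, 0.714 to 1.33 times the number chance gives. In bulk sums of a class, fewer cells with a transcript and less transcript per cell cannot be told apart.

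**Figure D1:**
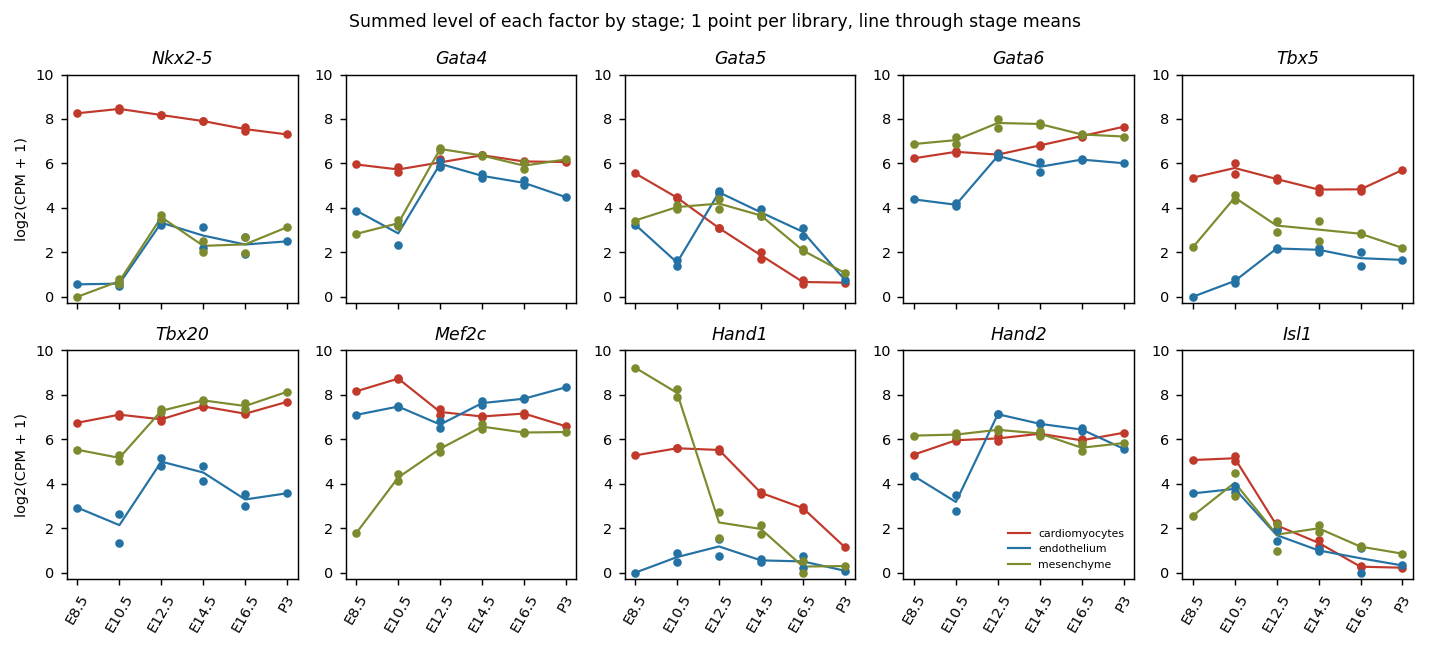
Summed level of each factor (log2(CPM + 1)) by stage in cardiomyocytes, endothelium and mesenchyme, with 1 point per library and a line through stage means. The E8.5 and E10.5 points come from embryos and later ones from hearts, with a lower Tnnt2 and Col1a1 gate in embryos, and Nkx2-5 is the factor with the widest gap between cardiomyocytes and the other classes, whereas Gata5, Hand1 and Isl1 decline.

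Over the 6 heart libraries from E12.5 through E16.5, cardiomyocytes differed from the endothelium in 8 of the 10 factors, 6 higher and 2 lower (edgeR quasi-likelihood test, Benjamini-Hochberg adjusted p under 0.05, 6 libraries in the contrast). The background is high in this contrast, since 80.2% of all genes tested were called (42.8% higher, 37.4% lower). Against mesenchyme 5 members were higher and 3 lower, beside 72.6% of all genes called (39.4% higher, 33.2% lower). Mesenchyme against endothelium gave 4 members higher and 3 lower, beside 58.9% of all genes (26.8% higher, 32.1% lower). All 10 factors passed the filter on low counts in these contrasts. The shares called among members were thus near those of all genes. The fit behind these contrasts also held both E10.5 embryo libraries, which enter its normalization and its shared estimate of the spread. The stage contrasts within these classes come from the same fit.

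**Figure D2:**
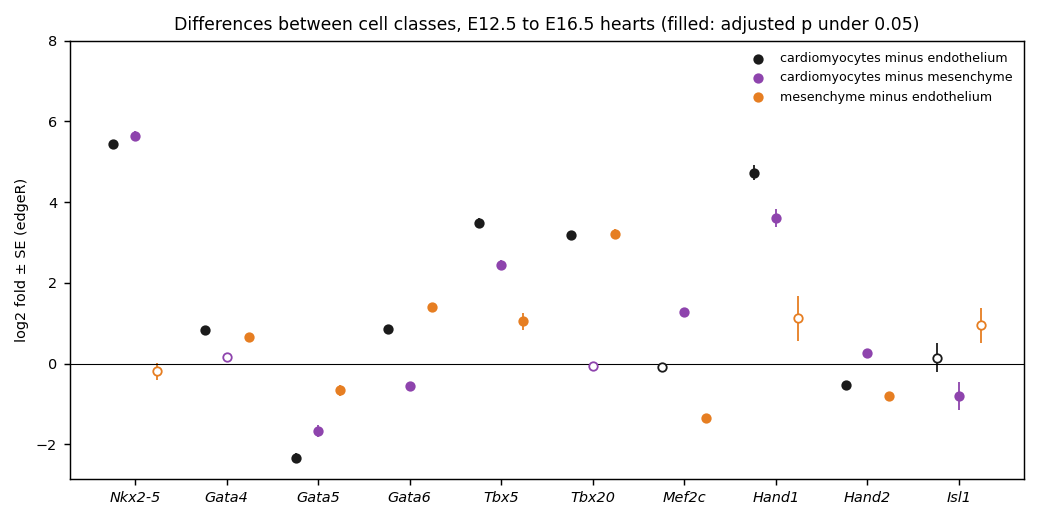
Log2 fold between cell classes for each factor, averaged over the 6 heart libraries of E12.5 to E16.5, with bars of 1 SE (edgeR). Filled points passed an adjusted p of 0.05, and Nkx2-5, Tbx5 and Hand1 lie far above 0 in both cardiomyocyte contrasts, while Gata5 lies below it in both.

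Nkx2-5, the homeodomain factor that marks committed cardiac cells, had the largest excess in cardiomyocytes of the 10 in both class contrasts. In cardiomyocytes its level was 305 CPM at E8.5 (95% exact Poisson interval 288 to 323), 337 and 362 CPM in the E10.5 libraries, 285 and 292 CPM at E12.5, 241 and 236 CPM at E14.5, 173 and 198 CPM at E16.5 and 157 CPM (155 to 159) at P3. Every heart library lay below both E10.5 libraries, and the E16.5 libraries lay below those of E12.5 and E14.5 without overlap. Nkx2-5 fell by 0.46 ± 0.10 (SE) on the log2 scale between E12.5 and E16.5 (adjusted p = 0.00040, edgeR). The difference of E12.5 from E10.5 did not pass the test (-0.11 ± 0.11, adjusted p = 0.43) and was 0.11 with barcodes over a ceiling on the mitochondrial share left out (adjusted p = 0.45).

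The endothelial Nkx2-5 level was 8.48 and 9.65 CPM at E12.5, 7.91 and 3.57 CPM at E14.5, and 2.75 and 5.46 CPM at E16.5. Mesenchyme had 11.7 and 10.2, 4.77 and 3.01, and 5.36 and 2.90 CPM at the same stages. Erythroid barcodes carried 7.45 and 7.63 CPM at E12.5, 3.67 and 2.00 CPM at E14.5, and 3.06 and 1.26 CPM at E16.5. The endothelial level was above the erythroid one of the same library in 5 of 6 libraries and the mesenchyme level in 6 of 6. Cardiomyocytes exceeded the endothelium by 5.45 ± 0.09 on the log2 scale (adjusted p = 3.8e-28) and mesenchyme by 5.64 ± 0.12 (adjusted p = 4.6e-26). Nkx2-5 was also called lower at E16.5 than at E12.5 in the endothelium (-1.29 ± 0.28, adjusted p = 0.00049) and in mesenchyme (-1.13 ± 0.40, adjusted p = 0.042), where the erythroid level and the cardiomyocyte list (851 and 927 CPM in the endothelium at E12.5, 784 and 798 at E16.5) fell as well. Their part in that change was not tested. The endothelial call was lost with gates doubled (-0.51, adjusted p = 0.52). The mesenchyme call was lost with gates doubled (-1.08, adjusted p = 0.56), with a floor of 5000 UMIs (adjusted p = 0.066), without barcodes under 1% mitochondrial UMIs (adjusted p = 0.053) and without any 1 of 5 libraries (both of E10.5, both of E12.5 and E16.5 replicate 2, adjusted p = 0.058 to 0.25).

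Isl1, the LIM-homeodomain factor of second heart field progenitors and of motor and sensory neurons, had the largest fall of the 10 in cardiomyocytes in both stage contrasts. Its level there was 32.6 CPM at E8.5 (27.2 to 38.7), 32.1 and 36.9 CPM at E10.5, 2.97 and 3.78 CPM at E12.5, 1.27 and 1.81 CPM at E14.5, 0.20 and 0.22 CPM at E16.5, and 0.169 CPM at P3 (0.102 to 0.264). The drop between the E10.5 embryo and the E12.5 heart was -3.18 ± 0.22 on the log2 scale (adjusted p = 2.3e-12), and a further -3.83 ± 0.31 separated E16.5 from E12.5 (adjusted p = 2.1e-11). These contrasts share the E12.5 libraries.

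In the embryo cardiomyocyte gate, Isl1 was unevenly spread over Tnnt2 levels. Barcodes just over the gate held 66.3 and 44.6 CPM in the E10.5 libraries, those over 2 times the gate 22.4 and 34.4 CPM, and those just under it 20.3 and 38.0 CPM. In hearts Isl1 was low in every class. Endothelium had 0 to 2.76 CPM and mesenchyme 0.98 to 3.58 CPM over the 6 libraries, against 0.20 to 3.78 CPM in cardiomyocytes. No erythroid level of Isl1 is set beside these values, so the part of background in the class differences was not tested. Cardiomyocytes and endothelium could not be separated (0.15 ± 0.36, adjusted p = 0.72). The difference from mesenchyme (-0.80 ± 0.35, adjusted p = 0.045) was lost without any 1 of 4 libraries (E12.5 replicate 2, E14.5 replicate 1, and each E16.5 replicate, adjusted p = 0.69, 0.19, 0.072 and 0.055), with a floor of 5000 UMIs (-0.64, adjusted p = 0.16), under the mitochondrial ceiling (-0.75, adjusted p = 0.056) and with gates doubled (-0.71, adjusted p = 0.43). Mesenchyme exceeded the endothelium by 0.95 ± 0.44 (adjusted p = 0.066), and a fit with the library as a block gave 0.94 (adjusted p = 0.042).

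The 3 GATA zinc-finger factors, which bind the same core motif, took different courses. Gata4, needed for heart tube fusion and cardiomyocyte proliferation, stood in cardiomyocytes at 61.0 CPM at E8.5 (53.6 to 69.1), 56.1 and 48.0 CPM at E10.5, 57.9 and 72.3 CPM at E12.5, 81.3 and 82.1 CPM at E14.5, 66.5 and 67.5 CPM at E16.5 and 65.9 CPM at P3 (64.4 to 67.4). The rise from E10.5 to E12.5 was 0.49 ± 0.14 (adjusted p = 0.0041), but with the heart Tnnt2 gate of 1500 CPM applied to embryos it was 0.20 (adjusted p = 0.38), and without E10.5 replicate 2 it was 0.38 (adjusted p = 0.062). The E16.5 and E12.5 ranges overlapped, with a difference of 0.22 ± 0.10 (adjusted p = 0.060). That difference passed with gates doubled (0.28, adjusted p = 0.010) and without E12.5 replicate 2 (0.37, adjusted p = 0.0041) or E10.5 replicate 1 (0.23, adjusted p = 0.033).

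Gata4 outside cardiomyocytes was high in hearts and low in embryos. Mesenchyme had 97.6 and 101 CPM at E12.5, 79.4 and 82.2 CPM at E14.5, 52.2 and 65.2 CPM at E16.5 and 71.5 CPM at P3, but 7.98 and 9.83 CPM in E10.5 embryos, where the gate holds mesenchyme of the whole trunk. The endothelium went from 56.5 and 67.9 CPM at E12.5 to 31.2 and 36.6 CPM at E16.5 and 21.3 CPM at P3, the last being 12.3 CPM with gates doubled. Gata4 fell in both classes from E12.5 to E16.5, by 0.96 ± 0.14 on the log2 scale in the endothelium (adjusted p = 3.2e-06) and by 0.61 ± 0.16 in mesenchyme (adjusted p = 0.0050). The mesenchyme call was lost without E12.5 replicate 2 (adjusted p = 0.081) and without E16.5 replicate 1 (adjusted p = 0.12). Averaged over the heart stages, cardiomyocytes and mesenchyme lay above endothelium. At E12.5, however, cardiomyocytes overlapped the endothelium and lay below mesenchyme, while at E16.5 they lay above both. Over these stages cardiomyocytes exceeded mesenchyme by 0.16 ± 0.08 (adjusted p = 0.059), a gap that passed the test with the library as a block (0.17, adjusted p = 0.0064).

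Gata5, a GATA factor of the endocardium and epicardium, faded from all 3 classes. Cardiomyocytes held 46.0 CPM at E8.5 (39.6 to 53.2), 21.2 and 20.8 CPM at E10.5, 7.53 and 7.504 CPM at E12.5, 3.03 and 2.26 CPM at E14.5, 0.50 and 0.67 CPM at E16.5 and 0.552 CPM at P3 (0.423 to 0.707). No 2 of the tested stages overlapped. The fall was -1.32 ± 0.16 from E10.5 to E12.5 (adjusted p = 8.9e-08) and -3.51 ± 0.15 from E12.5 to E16.5 (adjusted p = 4.8e-17). The endothelium was higher than cardiomyocytes in every heart library of these stages, with 25.8 and 24.1 CPM at E12.5, 14.2 and 11.6 CPM at E14.5, and 5.66 and 7.51 CPM at E16.5, ahead of 0.698 CPM at P3. Mesenchyme gave 14.6 and 19.96 CPM, 11.6 and 11.6 CPM, and 3.38 and 3.11 CPM, and 1.10 CPM at P3. No erythroid level of Gata5 is set beside these values. Between E12.5 and E16.5 Gata5 fell by 2.01 ± 0.17 in the endothelium (adjusted p = 2.0e-10) and by 2.29 ± 0.30 in mesenchyme (adjusted p = 1.0e-06). The decline was steeper in cardiomyocytes than in either class (difference of the changes 1.4998 ± 0.27, adjusted p = 7.7e-05, for the endothelium, lost with gates doubled at adjusted p = 0.096, and 1.22 ± 0.35, adjusted p = 0.011, for mesenchyme, the latter lost without E12.5 replicate 1, adjusted p = 0.062, E16.5 replicate 1, adjusted p = 0.21, with gates doubled, adjusted p = 0.20, or with the Col1a1 gate at 500 CPM, adjusted p = 0.077).

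Gata6, which acts in outflow tract and smooth muscle lineages as well as in myocardium, rose in heart cardiomyocytes between E12.5 and E16.5. It stood at 74.1 CPM at E8.5 (66.0 to 83.0), 92.8 and 89.0 CPM at E10.5, 80.0 and 86.6 CPM at E12.5, 113 and 109 CPM at E14.5, 147 and 151 CPM at E16.5 and 200 CPM at P3 (197 to 203). Each heart stage lay above the one before it with no overlap. The rise of Gata6 over these stages was 1.02 ± 0.10 on the log2 scale (adjusted p = 5.3e-10), while E12.5 against E10.5 was not called (0.04 ± 0.11, adjusted p = 0.81). In the tested hearts mesenchyme held the most Gata6, with 192 and 258 CPM at E12.5, 213 and 223 CPM at E14.5, and 155 and 159 CPM at E16.5, while its 147 CPM at P3 lay below the cardiomyocyte level. Cardiomyocytes were below it by the log2 difference of -0.55 ± 0.06 (adjusted p = 4.8e-09), and it exceeded the endothelium by 1.41 ± 0.07 (adjusted p = 7.1e-17). At E16.5 mesenchyme still lay above cardiomyocytes in both libraries, but by less than at E12.5 and E14.5. The change with stage differed between the classes, with -1.25 ± 0.15 for endothelium minus cardiomyocytes (adjusted p = 1.7e-07) and -1.40 ± 0.15 for mesenchyme minus cardiomyocytes (adjusted p = 4.8e-08).

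**Figure D3:**
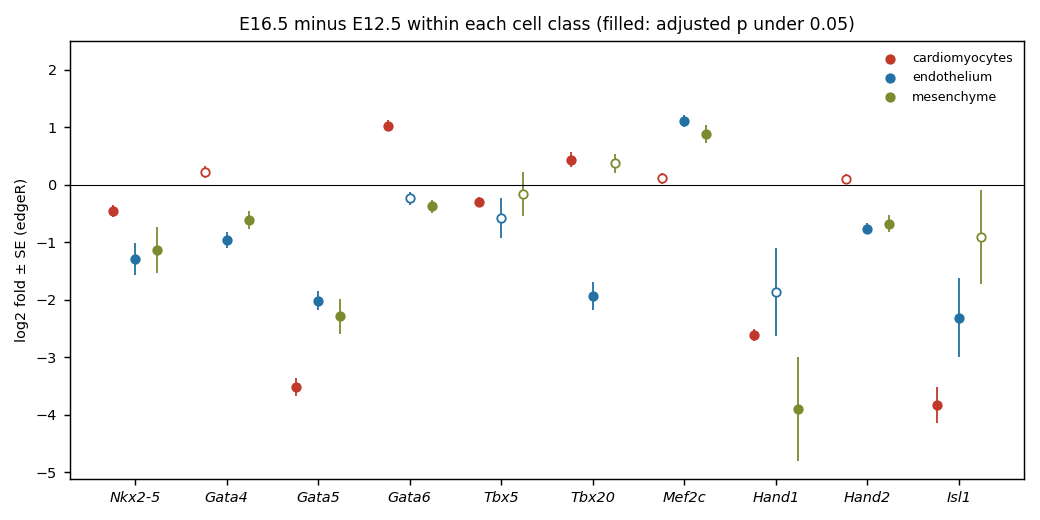
Log2 fold of each factor between E16.5 and E12.5 within cardiomyocytes, endothelium and mesenchyme, with bars of 1 SE (edgeR, 2 libraries per stage). Filled points passed an adjusted p of 0.05. Gata6 and Tbx20 are called above 0 in cardiomyocytes while Mef2c is called above 0 in the endothelium and mesenchyme, and Gata5 lies below 0 in all 3 classes.

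Of the T-box factors, Tbx5 drives atrial, septal and conduction genes and is mutated in Holt-Oram syndrome. Its cardiomyocyte level was 40.1 CPM at E8.5 (34.1 to 46.7), 64.5 and 44.5 CPM at E10.5, 37.2 and 39.5 CPM at E12.5, 29.1 and 25.6 CPM at E14.5, 26.1 and 28.9 CPM at E16.5 and 51.2 CPM at P3 (49.9 to 52.5). Libraries of E14.5 and E16.5 overlapped, and both stages lay below E12.5. The change from E12.5 to E16.5 was -0.30 ± 0.09 (adjusted p = 0.0052), which was lost when barcodes over a mitochondrial ceiling were left out (-0.05, adjusted p = 0.64) or without E16.5 replicate 1 (adjusted p = 0.062). The change from E10.5 to E12.5 (-0.34 ± 0.12, adjusted p = 0.021) rested on E10.5 replicate 1, without which it was -0.06 (adjusted p = 0.81), and was also lost without E12.5 replicate 1 (adjusted p = 0.053) and under the mitochondrial ceiling (adjusted p = 0.063). The P3 level was 110 CPM under the mitochondrial ceiling.

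Outside cardiomyocytes Tbx5 was low, with 1.59 to 3.57 CPM in heart endothelium at E12.5 to E16.5 and 4.77 to 9.76 CPM in mesenchyme, beside 0.191 to 1.67 CPM (2 to 10 UMIs) in erythroid barcodes. Cardiomyocytes exceeded the endothelium by 3.49 ± 0.11 on the log2 scale (adjusted p = 3.5e-22) and mesenchyme by 2.45 ± 0.12 (adjusted p = 1.2e-16). In E10.5 embryo mesenchyme Tbx5 reached 19.4 and 22.7 CPM.

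Tbx20, which represses Tbx2 in the chambers and is needed for valve and septal growth, was shared by cardiomyocytes and mesenchyme. In cardiomyocytes it stood at 106 CPM at E8.5 (96.6 to 117), 133 and 142 CPM at E10.5, 114 and 123 CPM at E12.5, 183 and 173 CPM at E14.5, 145 and 138 CPM at E16.5 and 205 CPM at P3 (203 to 208). Levels peaked at E14.5 among the tested heart stages, with no overlap between stages. Tbx20 was higher at E16.5 than at E12.5 by 0.44 ± 0.13 (adjusted p = 0.0046), a call that DESeq2 did not make (adjusted p = 0.053) and that was lost without E16.5 replicate 1 (adjusted p = 0.062). In mesenchyme the values were 148 and 162 CPM, 210 and 219 CPM, and 164 and 197 CPM from E12.5 to E16.5, and 281 CPM at P3. With gates doubled the stage means of mesenchyme were 80.1 CPM at E12.5 and 115 CPM at E14.5. Cardiomyocytes and mesenchyme were not distinguishable over hearts (-0.05 ± 0.08, adjusted p = 0.65). This comparison depends on the gates, since doubling them gave 0.52 (adjusted p = 0.00050) and a Col1a1 gate of 500 in place of 1000 CPM gave -0.22 (adjusted p = 0.012).

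The endothelial level of Tbx20 went down from 26.6 and 35.3 CPM at E12.5 to 16.4 and 27.2 CPM at E14.5 and 6.95 and 10.7 CPM at E16.5, with 10.9 CPM at P3 (9.35 to 12.7), where erythroid barcodes held 11.5 CPM. At the earlier stages erythroid barcodes held 3.78 and 5.91 CPM, 5.12 and 8.34 CPM, and 2.30 and 3.15 CPM of Tbx20, below the endothelium of the same library in 6 of 6 libraries. It fell by 1.93 ± 0.24 from E12.5 to E16.5 (adjusted p = 2.5e-07), which differed from the cardiomyocyte change by -2.37 ± 0.27 (adjusted p = 1.0e-07). For mesenchyme that difference was -0.07 ± 0.21 (adjusted p = 0.88).

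Mef2c, the MADS-box factor that acts in second heart field, skeletal muscle and endothelial cells alike, changed place between classes. Cardiomyocytes held 286 CPM at E8.5 (269 to 303), 416 and 434 CPM at E10.5, 137 and 162 CPM at E12.5, 132 and 127 CPM at E14.5, 147 and 138 CPM at E16.5 and 95.1 CPM at P3 (93.3 to 96.9). The drop from E10.5 to E12.5 was -1.34 ± 0.10 (adjusted p = 7.4e-12), and no further change was called by E16.5 (0.11 ± 0.09, adjusted p = 0.31). In the endothelium the heart levels instead rose, from 89.6 and 112 CPM at E12.5 to 187 and 208 CPM at E14.5, 232 and 221 CPM at E16.5 and 324 CPM at P3 (315 to 333). All E14.5 and E16.5 endothelial libraries lay above all cardiomyocyte libraries of those stages, whereas at E12.5 they lay below.

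The endothelial rise of Mef2c was 1.10 ± 0.10 on the log2 scale from E12.5 to E16.5 (adjusted p = 1.2e-09), and mesenchyme rose by 0.88 ± 0.16 (adjusted p = 0.00010), from 42.0 and 51.7 CPM to 79.1 and 77.4 CPM. Both changes exceeded that in cardiomyocytes (0.99 ± 0.14, adjusted p = 2.4e-06, and 0.76 ± 0.18, adjusted p = 0.0025). With gates doubled the mesenchyme rise (0.37, adjusted p = 0.50) and its difference from cardiomyocytes (0.27, adjusted p = 0.66) were lost, the latter also with the Col1a1 gate at 500 CPM (0.37, adjusted p = 0.084). The average over stages spans this crossing: cardiomyocytes and endothelium differed by -0.07 ± 0.06 (adjusted p = 0.24) over all hearts and by -0.53 (adjusted p = 9.5e-09) without E12.5. That average was also called, in the same direction and at adjusted p = 0.0086 to 0.037, with RLE size factors, DESeq2, the mitochondrial ceiling, mitochondrial and globin genes taken out, and without E10.5 replicate 2 or E16.5 replicate 1. In embryo endothelium Mef2c stood at 136 CPM at E8.5 (121 to 153) and 175 and 180 CPM at E10.5.

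Hand1, a basic helix-loop-helix factor of the left ventricular outer curvature and of extraembryonic and lateral mesoderm, was lost step by step from cardiomyocytes after E12.5. Its level was 37.8 CPM at E8.5 (32.0 to 44.3), 47.7 and 47.3 CPM at E10.5, 46.3 and 43.7 CPM at E12.5, 11.5 and 10.7 CPM at E14.5, 6.18 and 6.83 CPM at E16.5 and 1.22 CPM at P3 (1.02 to 1.44). The E12.5 level was not called different from that of E10.5 (0.09 ± 0.13, adjusted p = 0.62), and Hand1 then fell at each later stage with no overlap, by 2.61 ± 0.11 on the log2 scale from E12.5 to E16.5 (adjusted p = 1.8e-17). The share of cardiomyocyte barcodes with a Hand1 UMI was 35.3% and 33.7% at E12.5 and 8.52% and 7.28% at E16.5. Erythroid barcodes, which should lack Hand1, held 10 and 11 Hand1 UMIs at E12.5, in 2.47% and 2.21% of them, and 1 and 0 UMIs at E16.5. Drawn down to 2000 UMIs each, the cardiomyocyte shares were 8.39% and 7.94% at E12.5 and 1.14% and 1.25% at E16.5, against 0.171% and 0.326% of erythroid barcodes at E12.5. Median depths were 20439 and 17513 UMIs in cardiomyocytes and 30402.5 and 27106 UMIs in erythroid barcodes at E12.5.

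Embryo mesenchyme was the place of the highest Hand1 level, with 598 CPM at E8.5 (546 to 654, 40 barcodes) and 237 and 307 CPM at E10.5, where the mean with gates doubled was 475 CPM. Heart mesenchyme held 1.95 and 5.63 CPM at E12.5 (2 and 11 UMIs) and 0.42 and 0 CPM at E16.5 (3 and 0 UMIs). The gate takes mesenchyme of the whole trunk in embryos and of the heart afterwards, so embryo and heart are not compared by a test. Within hearts Hand1 was called lower in mesenchyme at E16.5 than at E12.5 (-3.90 ± 0.91, adjusted p = 0.0021), a call that was lost without E12.5 replicate 2 (-2.73, adjusted p = 0.34) and with gates doubled (-2.94, adjusted p = 0.41). The erythroid Hand1 counts given above fell over the same stages, and their part in this change was not tested. Heart endothelium had 0.16 to 1.84 CPM of Hand1, and no erythroid level in CPM is set beside it. Cardiomyocytes exceeded the endothelium by 4.73 ± 0.19 (adjusted p = 2.4e-19) and mesenchyme by 3.61 ± 0.22 (adjusted p = 1.4e-14).

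Hand2, the basic helix-loop-helix partner of Hand1 that acts in the right ventricle, endocardium and epicardium, was present in all 3 heart classes. In cardiomyocytes it stood at 63.2 and 59.3 CPM at E10.5, 59.8 and 70.0 CPM at E12.5, 73.7 and 76.8 CPM at E14.5, 59.0 and 63.2 CPM at E16.5 and 77.6 CPM at P3 (76.0 to 79.2), from 38.8 CPM at E8.5 (33.0 to 45.4). Both E14.5 libraries lay above those of the other tested stages, which overlapped among themselves. Neither tested stage contrast, E12.5 against E10.5 or E16.5 against E12.5, was called (0.25 ± 0.11, adjusted p = 0.076, and 0.09 ± 0.09, adjusted p = 0.37). The endothelium had the most Hand2 in E12.5 to E16.5 hearts, at 139 and 140 CPM, 105 and 101 CPM, and 82.8 and 89.4 CPM, falling to 46.8 CPM at P3 (43.5 to 50.3). In E10.5 embryo endothelium the level was 10.3 and 5.89 CPM. Mesenchyme held 82.0 and 88.5 CPM at E12.5 and 43.0 and 53.6 CPM at E16.5.

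Averaged over the heart stages, Hand2 was lower in cardiomyocytes than in the endothelium (-0.52 ± 0.05, adjusted p = 1.2e-09), lower in mesenchyme than in the endothelium (-0.79 ± 0.07, adjusted p = 5.6e-11) and higher in cardiomyocytes than in mesenchyme (0.27 ± 0.07, adjusted p = 0.00059, lost without E16.5 replicate 1 at 0.16, adjusted p = 0.077, and with the Tnnt2 gate at 1500 CPM in embryos at 0.14, adjusted p = 0.064). The last average spans a crossing. Both cardiomyocyte libraries lay below both mesenchyme libraries at E12.5 and above them at E16.5. Hand2 fell between E12.5 and E16.5 by 0.76 ± 0.10 in the endothelium (adjusted p = 7.1e-07) and by 0.68 ± 0.14 in mesenchyme (adjusted p = 0.00069), and both changes differed from that in cardiomyocytes (-0.86 ± 0.13, adjusted p = 1.3e-05, and -0.77 ± 0.17, adjusted p = 0.00091). The mesenchyme fall was lost without E12.5 replicate 2 (adjusted p = 0.063) and with gates doubled (adjusted p = 0.13), as was its difference from cardiomyocytes with gates doubled (adjusted p = 0.064).

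Counted over the members, 5 factors were called in cardiomyocytes between E10.5 and E12.5, beside 43.9% of all genes. Gata4 was higher at E12.5, and Gata5, Tbx5, Mef2c and Isl1 were lower. Stage and tissue sampled change together in this contrast and cannot be told apart. The Tnnt2 gate differs too, and with the gate at 1500 CPM in embryos Nkx2-5 was lower as well (-0.52, adjusted p = 0.00065). Between E12.5 and E16.5, 2 factors rose and 5 fell in cardiomyocytes, beside 30.6% of all genes higher and 26.1% lower (56.7% in both directions). Mitochondrial shares moved with stage in cardiomyocytes: the library medians were 5.28% and 5.51% in the E12.5 hearts, 7.83% and 7.72% in those of E14.5, 10.2% and 10.7% in those of E16.5, and 21.99% at P3. Barcodes under 1% mitochondrial UMIs were 33.4% and 32.9%, 16.9% and 15.4%, 8.52% and 6.42%, and 0.432% of the class in the same order. Under the mitochondrial ceiling 6 of the 7 calls passed, Tbx5 being lost, and without barcodes under 1% all 7 passed, with Hand1 at -2.58 and -2.51. In the endothelium 1 rose and 6 fell (18.9% and 18.4% of all genes, 37.4% in both directions), of which Isl1 (-2.31, adjusted p = 0.0084) was lost without E12.5 replicate 2 (adjusted p = 0.079) and E16.5 replicate 1 (adjusted p = 0.29), and in mesenchyme 1 rose and 6 fell (11.4% and 9.39%, 20.8% in both directions). The mesenchyme count is unsteady, with Gata5 and Mef2c called without E12.5 replicate 2, and Gata4, Gata5 and also Tbx20 with gates doubled. Of the differences from cardiomyocytes in mesenchyme, those of Gata4 and Gata6 passed with gates doubled. The change with stage differed from that of cardiomyocytes for 7 factors in the endothelium and 6 in mesenchyme, beside 26.8% of all genes for the endothelium (12.9% higher, 13.9% lower) and 22.4% for mesenchyme (12.6% higher, 9.80% lower).

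In E10.5 embryos the question was how far the 10 factors mark the cardiomyocytes against all other cells of the trunk. All 10 were higher in the 213 and 222 cardiomyocyte barcodes than in the rest, beside 22.9% of all genes called higher (26.6% lower, 49.5% in both directions). The log2 fold was 7.43 ± 0.07 for Nkx2-5 (adjusted p = 6.1e-14), 6.01 ± 0.09 for Tbx20 (adjusted p = 1.6e-12) and 2.18 ± 0.09 for Hand1 (adjusted p = 1.6e-08). At the low end Isl1 had 0.39 ± 0.10 (adjusted p = 0.0065), which was lost with gates doubled (0.10, adjusted p = 0.61) and with the Tnnt2 gate at 1500 CPM (0.28, adjusted p = 0.30). The median log2 fold of all genes was -0.12 here and in the atrial comparison and -0.13 in the Shox2 comparison, and folds of these contrasts stand relative to it.

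Isl1 was far higher in barcodes with the neuronal gene Elavl3 than in cardiomyocytes, at 256 and 251 CPM at E10.5 and 172 CPM in the 25 such barcodes at E8.5. Barcodes with the epithelial gene Epcam held 47.5 and 55.2 CPM of Isl1. Epicardial barcodes, taken by the mesothelial gene Upk3b, held 94.5 and 125 CPM of Hand1, 125 and 118 CPM of Gata6 and 35.7 and 23.5 CPM of Gata5. Each of these 3 was thus at or above its own cardiomyocyte level in the same embryos. The Upk3b gate takes cells of the whole trunk in embryos, so it is not limited to the epicardium there. In hearts the Hand1 level under the same gate was at most 4.93 CPM, and embryo and heart are not compared by a test.

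**Figure D4:**
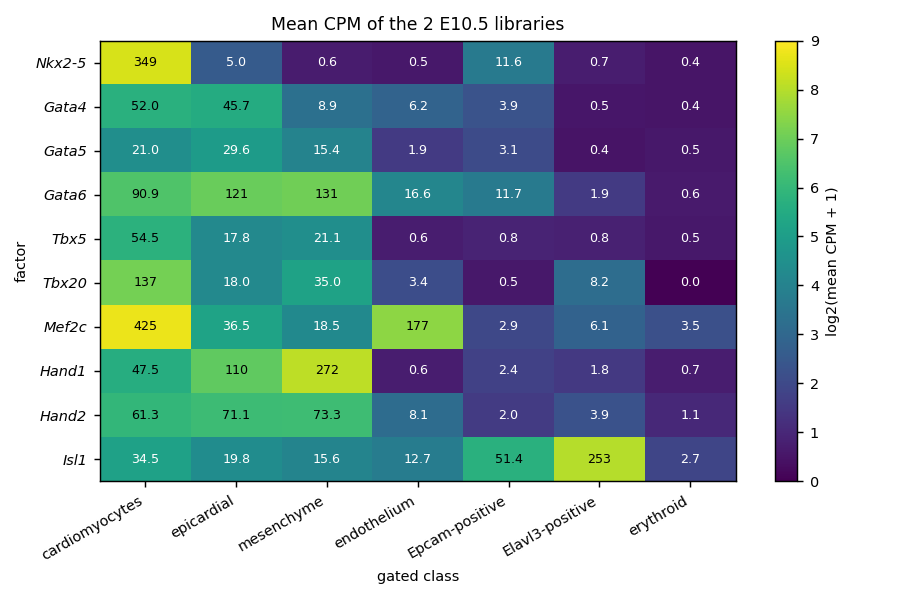
Mean CPM of the 2 E10.5 libraries for each factor (rows) in each gated class (columns), printed in the cells and coloured on a log2(mean CPM + 1) scale. Nkx2-5 is at 349 CPM in cardiomyocytes and at most 11.6 CPM elsewhere, Isl1 peaks at 253 CPM in Elavl3-positive barcodes, and Hand1 peaks at 272 CPM in mesenchyme.

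Heart cardiomyocytes were next divided into atrial barcodes (Sln at least 1000 CPM and Myl2 under 2000) and ventricular barcodes (Myl2 at least 2000 CPM and Sln under 500). Atrial barcodes were few at E12.5 (19 and 37 barcodes) and increased to 117 and 69 barcodes at E14.5, 321 and 295 barcodes at E16.5 and 1175 barcodes at P3. Barcodes of neither class were left out. Of 2601 and 3445 cardiomyocyte barcodes at E12.5, 2239 and 2974 were ventricular, and of 3943 and 3721 at E16.5, 3433 and 3246 were. The atrial numbers thus count barcodes passing the gates and not all atrial cells. The atrial marker list summed to 30065 to 48222 CPM in the atrial and 1328 to 8313 CPM in the ventricular class at E12.5 to E16.5. This list includes Sln, so the gate sets part of the gap. In total 7 members were higher in atrial cardiomyocytes and 1 lower, beside 12.1% and 18.8% of all genes (30.9% in both directions). Under the mitochondrial ceiling 5 of these 8 calls passed, with Gata6 (0.21, adjusted p = 0.082), Mef2c (0.18, adjusted p = 0.14) and Isl1 lost. Barcodes under 1% mitochondrial UMIs were 23.7% to 39.1% of atrial and 4.96% to 35.2% of ventricular barcodes over the 6 libraries, and leaving them out lost none of the 8 calls.

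Tbx5 was higher in atrial than in ventricular barcodes of every heart library. Atrial levels were 115 and 108 CPM at E12.5, 164 and 124 CPM at E14.5, 143 and 155 CPM at E16.5 and 249 CPM at P3, whereas ventricular levels were 28.1 and 31.7 CPM, 19.6 and 18.8 CPM, 16.2 and 17.1 CPM, and 11.5 CPM. The difference was 2.54 ± 0.09 on the log2 scale (adjusted p = 2.2e-21). The cardiomyocyte level of Tbx5 given above combines a low ventricular level, a high atrial level and that of barcodes in neither class. The part of chamber makeup in its stage change was not tested.

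Hand1 was found on the ventricular side. Atrial barcodes held 0, 1, 2 and 1 UMIs at these stages in turn, against 4887, 1007, 784 and 133 ventricular UMIs. The atrial to ventricular ratio of levels had an exact 95% interval of 0 to 0.0913 at E12.5, and was 0.0378 (0.00095 to 0.211) at E14.5, 0.0341 (0.0041 to 0.124) at E16.5 and 0.0389 (0.00098 to 0.220) at P3. These intervals cover counting error only.

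Gata5 was higher in atrial than ventricular barcodes, at 18.1 and 14.2 against 5.94 and 6.39 CPM at E12.5, 6.73 and 13.8 against 2.63 and 1.82 CPM at E14.5, and 2.75 and 1.97 against 0.29 and 0.52 CPM at E16.5 (1.86 ± 0.28, adjusted p = 3.1e-06). At P3, 52 atrial UMIs stood against 4 ventricular ones, or 2.91 against 0.0433 CPM. Isl1 had 18.1 and 12.2 against 1.25 and 1.21 CPM at E12.5, but only 1.35 and 1.38 against 0.91 and 1.10 CPM at E14.5. Its atrial excess (2.01 ± 0.50, adjusted p = 0.0019) was lost without E12.5 (1.31, adjusted p = 0.11), whose atrial class is the smallest, without E14.5 replicate 1 (1.96, adjusted p = 0.087), under the mitochondrial ceiling (0.93, adjusted p = 0.39) and with gates doubled (1.31, adjusted p = 0.35). Tbx20 was modestly higher in the atria, by 0.42 ± 0.07 (adjusted p = 1.3e-05), and Mef2c by 0.28 ± 0.07 (adjusted p = 0.0011). Nkx2-5 differed by 0.23 ± 0.06 (adjusted p = 0.0042, lost without E14.5 replicate 2 at 0.19, adjusted p = 0.056) and Gata6 by 0.26 ± 0.08 (adjusted p = 0.0081, lost without E12.5 at 0.11, adjusted p = 0.17, without E12.5 replicate 1, adjusted p = 0.40, without E14.5 replicate 1, adjusted p = 0.097, and with gates doubled at 0.16, adjusted p = 0.13). Gata4 (-0.03 ± 0.09, adjusted p = 0.82) and Hand2 (0.17 ± 0.08, adjusted p = 0.13) were not called.

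**Figure D5:**
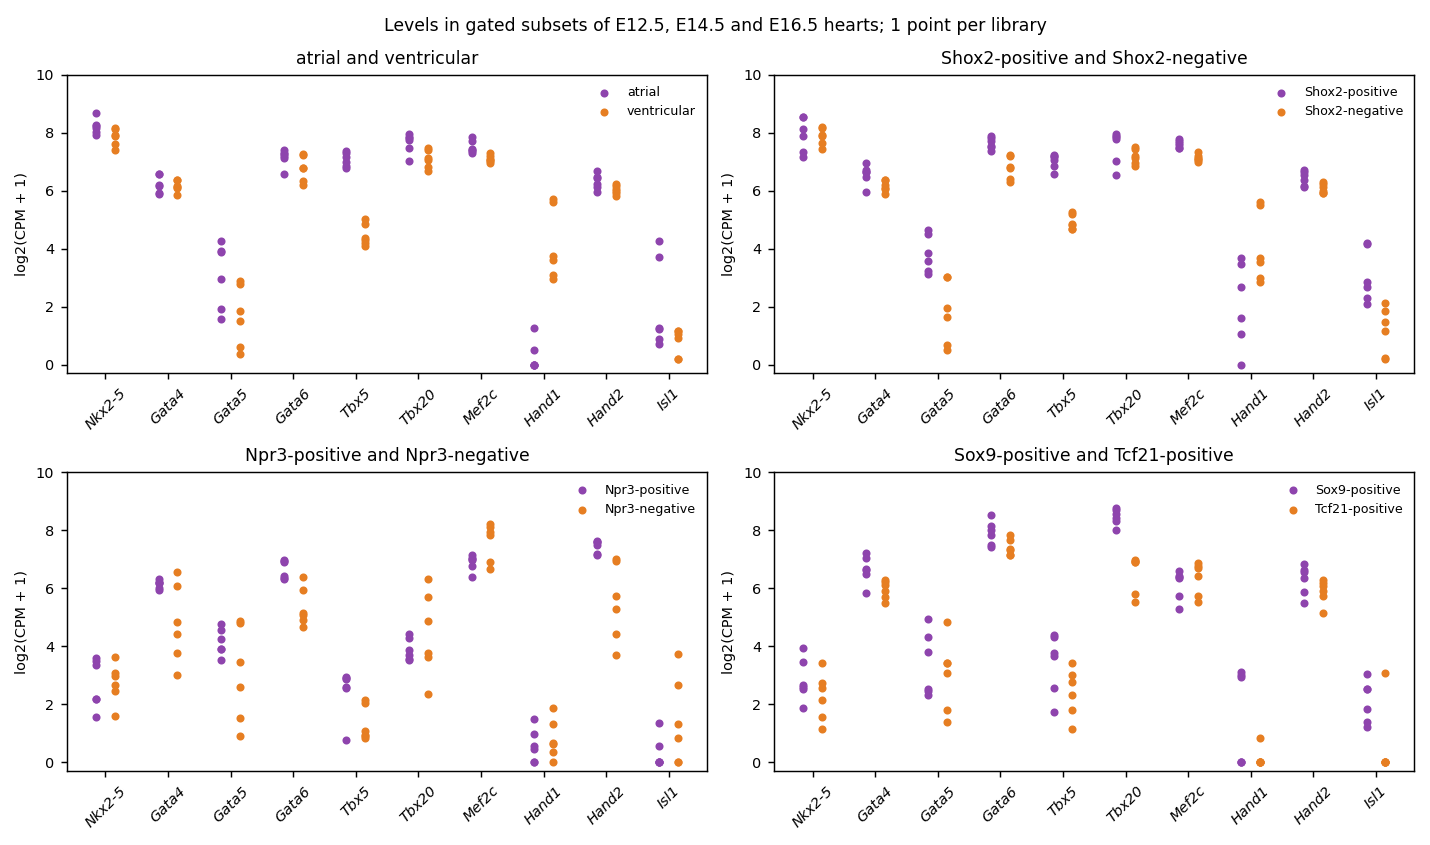
Level of each factor (log2(CPM + 1)) in 4 pairs of gated subsets of the E12.5 to E16.5 hearts, with 1 point per library. Tbx5 separates atrial from ventricular cardiomyocytes and Shox2-positive from Shox2-negative ones without overlap, and Tbx20 does so for Sox9-positive and Tcf21-positive mesenchyme.

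Shox2 encodes a homeodomain factor of the sinus venosus and sinoatrial node, the pacemaker end of the conduction system that the study set out to follow. Barcodes with at least 1 Shox2 UMI numbered 70 and 96 in the E12.5 libraries, 56 and 29 in those of E14.5, 38 and 31 in those of E16.5, and 54 at P3. In total 5 members were higher in them and 2 lower, beside 10.1% and 18.0% of all genes (28.2% in both directions). The atrial marker list summed to 16437 to 26562 CPM in the Shox2-positive class of the tested hearts and 4620 to 10236 CPM in the Shox2-negative class. The lists of mesenchyme (97.5 to 1722 against 60.9 to 139 CPM, all 8 genes above 0) and endothelium (33.5 to 87.5 against 31.0 to 44.3 CPM) were higher in the Shox2-positive class of 6 of 6 libraries. The cushion list was at 6.45 to 159 against 10.4 to 17.2 CPM, lower in E12.5 replicate 1 and higher in the other libraries. The part of chamber makeup and of these or other cell types in the differences was not tested. Leaving out barcodes that also passed the endothelium or mesenchyme gate lost the call of Nkx2-5 (-0.18, adjusted p = 0.055) and of no other member. Barcodes under 1% mitochondrial UMIs were 5.71% and 8.33% of the Shox2-positive class against 34.1% and 33.6% of the Shox2-negative class in the E12.5 hearts, 5.36% and 3.45% against 17.1% and 15.5% in those of E14.5, and 7.89% and 3.23% against 8.53% and 6.45% in those of E16.5. Without them the Nkx2-5 call was lost (-0.17, adjusted p = 0.068) and the other 6 passed, and under the mitochondrial ceiling all 7 passed.

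Isl1 stayed measurable in Shox2-positive cardiomyocytes at E16.5 and P3, when it was almost gone from the others. It stood at 17.2 and 17.0 against 2.57 and 3.40 CPM at E12.5, 3.27 and 5.38 against 1.24 and 1.77 CPM at E14.5, 3.86 and 6.21 against 0.16 and 0.16 CPM at E16.5, and 6.14 against 0.126 CPM at P3. The difference was 2.67 ± 0.44 on the log2 scale (adjusted p = 3.9e-05), but it rests on few molecules, with 54, 5, 6 and 5 UMIs in the Shox2-positive class at the 4 stages. Tbx5 was higher by 1.89 ± 0.08 (adjusted p = 7.7e-16) and Gata5 by 2.35 ± 0.29 (adjusted p = 5.0e-07). Gata6 was higher by 0.64 ± 0.07 (adjusted p = 2.0e-07), while Hand1 was lower, with a difference of -2.71 ± 0.32 (adjusted p = 3.3e-07). Mef2c was called higher (0.22 ± 0.07, adjusted p = 0.015, lost without either E14.5 or either E16.5 replicate, adjusted p = 0.059 to 0.080). Nkx2-5 was called lower (-0.22 ± 0.07, adjusted p = 0.013), but not with RLE size factors (-0.14, adjusted p = 0.12), with DESeq2 (-0.15, adjusted p = 0.065) or without E14.5 replicate 1, E16.5 replicate 1 or E16.5 replicate 2 (adjusted p = 0.14, 0.059 and 0.092).

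Heart endothelium was divided by Npr3, the natriuretic peptide receptor gene of the endocardium. Npr3-positive barcodes carried 692 to 1360 CPM of the endocardium list at E12.5 to E16.5, and barcodes without an Npr3 UMI 83.4 to 219 CPM. This list includes Npr3, so the gate sets part of the gap. Those without Npr3 carried 211 to 7055 CPM of the coronary endothelium list against 10.504 to 125 CPM. Lists of other cell types are not given for these classes, and their part in the differences was not tested. Of 9 members that passed the filter on low counts, 5 were higher in the Npr3-positive class and 2 lower, beside 23.7% and 25.6% of all genes (49.3% in both directions). Isl1 is among these 9, but its SE of 4535.72 on the log2 scale leaves its difference undetermined. The 2 classes changed in number with stage: Npr3-positive barcodes numbered 145 and 196 in the E12.5 libraries and 138 and 121 in those of E16.5, and Npr3-negative ones 110 and 134, then 170 and 163. Median mitochondrial shares were 3.82% to 4.93% in Npr3-positive and 2.92% to 3.63% in Npr3-negative barcodes, higher in 6 of 6 libraries, and all 7 calls passed under the mitochondrial ceiling.

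For Hand2, Npr3-positive levels were 143 and 141 CPM at E12.5, 194 and 180 CPM at E14.5, 196 and 191 CPM at E16.5 and 144 CPM at P3, while Npr3-negative levels were 122 and 128 CPM, 38.1 and 52.3 CPM, 12.1 and 20.5 CPM, and 21.7 CPM. The Npr3-positive libraries of E14.5 and E16.5 lay above those of E12.5, while the Npr3-negative ones lay below. Whether the class difference changed with stage was not tested. Averaged over stages the difference was 1.87 ± 0.09 (adjusted p = 7.1e-15). Gata4 (1.33 ± 0.11, adjusted p = 4.3e-10) and Gata6 (1.27 ± 0.10, adjusted p = 4.2e-11) were also higher in the Npr3-positive class when averaged over stages. Mef2c went the other way (-0.80 ± 0.07, adjusted p = 2.3e-09), with 83.7 and 107 against 100 and 118 CPM at E12.5 and 129 and 126 against 299 and 277 CPM at E16.5. Gata4 stood at 61.2 and 63.1 CPM in Npr3-positive barcodes at E12.5 and at 71.7 and 72.9 CPM at E16.5, against 67.4 and 93.7 CPM and then 7.08 and 12.53 CPM in Npr3-negative ones. The Gata4 average thus spans a crossing, with Npr3-positive libraries below Npr3-negative ones at E12.5 and above them at E16.5. Hand2 and Gata4 in Npr3-positive barcodes thus lay higher in the E16.5 libraries than in those of E12.5, while both fell over the whole endothelium. The part of the class makeup in the endothelial stage changes was not tested. Gata5 was higher by 1.29 ± 0.21 (adjusted p = 1.1e-05) and Tbx5, on 1 to 19 UMIs per class and library and in 5 of 6 libraries, by 1.76 ± 0.38 (adjusted p = 0.00046, lost without E16.5 replicate 1 at 0.87, adjusted p = 0.32). Tbx20 was called lower (-0.67 ± 0.22, adjusted p = 0.014), but at -0.14 (adjusted p = 0.72) without E12.5 and not without E14.5 replicate 2 or E16.5 replicate 2 (adjusted p = 0.11 and 0.29) or with gates doubled (-0.72, adjusted p = 0.22).

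Heart mesenchyme was divided by Sox9, a cushion and cartilage factor, and Tcf21, a factor of the epicardium-derived fibroblast lineage. The Sox9-positive class held 442 to 1124 CPM of the cushion list at E12.5 to E16.5 and the Tcf21-positive class 40.4 to 133 CPM. This list includes Sox9, so the gate sets part of the gap. Tbx20 had the clearest difference, at 414 and 321 against 45.4 and 54.3 CPM at E12.5, 432 and 345 against 119 and 126 CPM at E14.5, 258 and 373 against 118 and 123 CPM at E16.5, and 444 against 221 CPM at P3. The groups did not overlap, and the difference was 1.76 ± 0.12 on the log2 scale (adjusted p = 5.4e-10). Of 7 members tested 3 were higher and 1 lower, beside 7.64% and 8.53% of all genes (16.2% in both directions). The calls for Gata4 (0.50 ± 0.13, adjusted p = 0.013), Gata6 (0.32 ± 0.11, adjusted p = 0.044) and Mef2c (-0.44 ± 0.14, adjusted p = 0.039) were each lost without E12.5 and in several other settings. The classes held as few as 15 and 20 barcodes at E12.5, and with gates doubled Tbx20 missed the threshold too (1.01, adjusted p = 0.087). Median depth was lower in the Sox9-positive class of every tested library. It was 10278.5 and 7855.5 against 19321 and 15188.5 UMIs at E12.5, and 12330.5 and 7747 against 13610.5 and 11566 UMIs at E16.5. These gates were not corrected for depth, and the part of depth in the differences was not tested.

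Ventricular cardiomyocytes were divided by Hand1 itself, after drawing 2000 UMIs from each barcode so that depth did not enter the class. Hand1-positive barcodes numbered 189 and 264 in the E12.5 libraries, 86 and 57 in those of E14.5, and 38 and 50 in those of E16.5. Among the other 9 members Tbx5 was the one called, beside 1.96% of all genes (0.529% higher, 1.43% lower). It stood at 43.6 and 45.2 against 26.8 and 30.4 CPM at E12.5, 40.6 and 43.1 against 19.0 and 18.2 CPM at E14.5, and 41.0 and 28.8 against 15.9 and 16.9 CPM at E16.5. Tbx5 in Hand1-positive barcodes was higher in 6 of 6 libraries, by 0.87 ± 0.10 (adjusted p = 2.0e-06). Barcodes under 1% mitochondrial UMIs were 40.2% and 39.4% of the Hand1-positive against 34.7% and 33.4% of the Hand1-negative class in the E12.5 hearts, 24.4% and 31.6% against 15.7% and 13.8% in those of E14.5, and 7.89% and 4.0% against 6.77% and 4.97% in those of E16.5. Without them the Tbx5 difference was 0.89 (adjusted p = 3.4e-06), and under the mitochondrial ceiling 0.90 (adjusted p = 5.0e-06). At P3, with 14 Hand1-positive barcodes, the levels were 11.6 and 11.5 CPM. Gata6 was called lower only with the library as a block (-0.17, adjusted p = 0.045, against 0.18 without it), a fit in which the number of genes called went from 263 to 665.

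Genes that work with the factors were taken from 3 lists. The partners list has 20 cofactors and binding partners. In cardiomyocytes against endothelium 12 were higher and 8 lower (42.8% and 37.4% of all genes), with the largest differences for Myocd, the serum response factor coactivator (6.38), Hopx, a homeodomain-only protein (5.62), and Smyd1, a muscle methyltransferase (5.59). In cardiomyocytes between E12.5 and E16.5, 11 partners rose and 4 fell (30.6% and 26.1% of all genes), among them Hopx (1.56) and the helix-loop-helix inhibitors Id1 (-1.72) and Id2 (-2.09). The median of the partners in that contrast was 0.21 against 0.03 for all genes.

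The cardiac target list has 15 genes that these factors are known to regulate. All 15 were higher in cardiomyocytes than in the endothelium (42.8% of all genes), led by the natriuretic peptide gene Nppb (6.98), the myosin gene Myh6 (6.45) and Ankrd1 (6.14), a titin-associated repeat protein, with a median of 5.58 against 0.08 for all genes. Between E10.5 and E12.5, 12 rose in cardiomyocytes and the other 3 did not pass (43.9% of all genes called in both directions), with Cited1 (3.55), Myl2 (3.04) and Myh7 (2.47) ahead. By E16.5, 8 had risen and 5 fallen against E12.5 (30.6% and 26.1% of all genes), including the calcium handling genes Pln (1.27) and Ryr2 (1.19) upward and Cited1 downward (-1.64). In Hand1-positive ventricular barcodes 3 were higher, Gja5, the connexin gene of conducting myocardium (1.39), Cited1 (0.97) and Nppa (0.94), and 6 lower (0.529% and 1.43% of all genes).

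The second heart field list has 10 genes of the progenitor pool. From E10.5 to E12.5, 9 were lower in cardiomyocytes and 1 did not pass (43.9% of all genes called in both directions), with a median of -2.69 against 0.05 for all genes. Fgf8 went from 14.02 and 11.99 CPM to 0.0787 and 0.270 CPM. Isl1, which belongs to the same progenitor programme, fell in the same contrast as given above. Between E12.5 and E16.5, 5 of the list were lower and 5 did not pass (26.1% of all genes lower), Fgf10 (-4.76), Bmp4 (-4.19) and Foxc2 (-1.64) leading. These lists were assembled with earlier results of these data known and give no independent evidence of direction.

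The genes whose pattern was most like each factor were taken by Pearson correlation of log2(CPM + 1) over 30 sums (3 classes in 10 tables). The sums share libraries, depth and free RNA, so r is a description. Nkx2-5 was closest to Myl4 (0.987), Ankrd1 (0.983) and Smyd1 (0.982), and Tbx5 to Dsp (0.936), Synpo2 (0.931) and Lyrm5 (0.925). Tbx20 was closest to Plekha6 (0.955), Hand1 to Msx2 (0.971), Isl1 to B3gnt5 (0.923), Gata6 to Ncam1 (0.914), Gata4 to Mical2 (0.897), Mef2c to Ctnnd1 (0.891), Gata5 to Hacd3 (0.860) and Hand2 to Spon1 (0.799). Among pairs of members the highest r was 0.832 for Gata6 and Tbx20, followed by 0.814 for Nkx2-5 and Tbx5, and the lowest was -0.463 for Mef2c and Hand1.

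At the level of single barcodes, the median number of the 10 factors with at least 1 UMI was 5 to 6 in cardiomyocytes, 1 to 4 in the endothelium, 2 to 4 in mesenchyme and 0 in erythroid barcodes of every table. These counts are not corrected for depth. After thinning every barcode to 2000 UMIs, 25.9% to 46.5% of cardiomyocyte barcodes had an Nkx2-5 UMI (70.4% to 91.9% before thinning), against 0.06% to 1.44% of erythroid barcodes (0.82% to 13.3% before).

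The P3 table pools 2 wells, told apart by the barcode suffix, and the factors differed between them. In cardiomyocytes Tbx20 was 175 CPM in well 1 and 283 CPM in well 2, Gata6 216 and 158 CPM, and Nkx2-5 165 and 136 CPM. Endothelial Hand2 was 35.7 and 60.2 CPM, and mesenchymal Gata6 188 and 123 CPM. The labels do not say which sample each well holds, so the wells were not treated as replicates, and the counting intervals given for P3 are narrower than this spread.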

How the data were processed

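Droplet single-cell RNA sequencing of mouse embryos and hearts gave 10 count tables from 13 sample records. The deposited values are raw UMI counts for each gene in each barcode, not normalized, which the authors made with Cell Ranger on mm10 (version 2.1.1 in the submitters' processing notes, 3.1.0 or, for P3, 3.0.0 in the matrix headers). The labels name a version 2 kit and the methods a version 3 kit. The unfiltered tables list the version 2 kit's barcodes, and every P3 barcode is among them. The labels name trypsin and the methods collagenase II, and which was used was not settled. These steps can alter which cells and transcripts were caught, alike at all stages as far as stated.

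Barcodes with at least 2000 UMIs were kept, and classes were gated on marker genes as levels in CPM: Cdh5 at least 200 for endothelium, Col1a1 at least 1000 in hearts and 300 in embryos for mesenchyme (both with at least 2 UMIs), Npr3, Upk3b, Epcam and Elavl3 at least 200, 1 UMI for Shox2, Sox9 and Tcf21, and over 10% globin UMIs for erythroid barcodes. No doublet caller was run, and barcodes passing more than 1 gate were left out as an alternative. Counts of a class were added up within each library and tested with edgeR 4.0.16 in R 4.3.3 (TMM scaling, filterByExpr, quasi-likelihood test, Benjamini-Hochberg adjustment over all genes tested, threshold 0.05). Errors of log2 folds are SE recovered from the F statistic. E8.5 and P3 entered no test. P-values measure only the spread between libraries, 2 per stage, which may be technical. Exact Poisson intervals cover counting error only.

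Classes of 1 library come from the same sample. Their deviations from stage means correlated at -0.19 to 0.69 (median 0.22, 12 pairs, 2281 genes at a mean of at least 50 CPM). A fit with the library as a block was therefore the paired alternative, except for stage contrasts within a class, where it cannot be used. Other alternatives were RLE size factors, DESeq2 1.42.0, no filter on low counts, a floor of 5000 UMIs, mitochondrial ceilings, mitochondrial and globin genes taken out, barcodes under 1% mitochondrial UMIs left out, gates doubled and each library left out. The members and gene lists were chosen with earlier results of these data known. Of each list the 3 largest changes were named, and of like genes the 3 or 1 of highest r. Promoters came from RefSeq. The statistics were tested on simulated sums drawn independently, without the correlation between classes of 1 library. That test covered the first class contrast of each fit, and no stage contrast or difference between stage changes.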

Additional observations from a re-analysis of the deposited data

Results flagged for a closer look

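The change from E12.5 to E16.5 differed between cell classes for several factors, by an interaction term in the edgeR fit (log2 scale, the change in the named class minus that in cardiomyocytes, 2 libraries per stage and class). In the endothelium the difference was -2.37 for Tbx20 (adjusted p = 1.0e-07), -1.25 for Gata6 (adjusted p = 1.7e-07), -1.18 for Gata4 (adjusted p = 4.9e-06), -0.86 for Hand2 (adjusted p = 1.3e-05) and -0.84 for Nkx2-5 (adjusted p = 0.041). It was 1.4998 for Gata5 (adjusted p = 7.7e-05) and 0.99 for Mef2c (adjusted p = 2.4e-06). The Nkx2-5 difference was lost with gates doubled (-0.019), without E16.5 replicate 1 (-0.45, adjusted p = 0.44), without any 1 of the E10.5 and E12.5 libraries, with RLE size factors, under the mitochondrial ceiling and with either of the other gates (adjusted p = 0.051 to 0.18), and that of Gata5 with gates doubled (adjusted p = 0.096).

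In mesenchyme the difference was -1.40 for Gata6 (adjusted p = 4.8e-08), -0.84 for Gata4 (adjusted p = 0.0013) and -0.77 for Hand2 (adjusted p = 0.00091), and it was 0.76 for Mef2c (adjusted p = 0.0025), 1.22 for Gata5 (adjusted p = 0.011) and 2.92 for Isl1 (adjusted p = 0.012). Without E16.5 replicate 1 the differences of Gata4 (adjusted p = 0.055) and Gata5 (adjusted p = 0.21) were lost, and that of Gata5 also without E12.5 replicate 1 (adjusted p = 0.062). With the Col1a1 gate at 500 CPM those of Gata5, Mef2c and Isl1 were lost (adjusted p = 0.077, 0.084 and 0.25). The Isl1 difference was lost without E16.5 replicate 1 (adjusted p = 0.086) and with gates doubled (adjusted p = 0.097), where Gata5, Mef2c and Hand2 were lost too (adjusted p = 0.20, 0.66 and 0.064).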

How the results depend on the processing

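Of 2561 member log2 folds recomputed under alternatives, 2342 kept their direction and side of the threshold, 58 passed newly, 114 no longer passed and 47 changed sign; the cause was not tested. The Col1a1 gate of 500, the Tnnt2 gate of 1500 in embryos and the fits without E12.5 were chosen after seeing the data.

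With gates doubled, 3 members were called in mesenchyme between E12.5 and E16.5 (7 as reported), 2 in its difference from cardiomyocytes (6 as reported) and 0 between Sox9-positive and Tcf21-positive mesenchyme (4 as reported; edgeR, 1 at an unadjusted p under 0.05, and 1 with DESeq2 on the reported gates). That last count was 2 with no filter on low counts and 1 without E12.5. The atrial count went from 8 to 5 under the mitochondrial ceiling, and the count for Hand1-positive barcodes from 1 to 2 with the library as a block. Leaving out 1 library gave 2 to 7 members for the mesenchyme stage contrast, 3 to 6 for its difference from cardiomyocytes and 1 to 3 for the Sox9 contrast.

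Signs turned with gates doubled for Tbx20 between cardiomyocytes and mesenchyme (0.52), Nkx2-5 between mesenchyme and endothelium (0.069), the stage differences from cardiomyocytes of Hand1 (-0.11) and Isl1 (-4.65) in endothelium and Tbx20 (0.43) in mesenchyme, Gata5 (-0.15) and Gata6 (-0.064) in the Sox9 contrast, and Gata4 (-0.0076) in the Hand1 contrast. With Col1a1 at 500 they turned for Nkx2-5 between mesenchyme and endothelium (0.079), Tbx5 in mesenchyme with stage (0.012) and Gata5 in the Sox9 contrast (-0.033). From E10.5 to E12.5 Gata6 turned with RLE (-0.0040), DESeq2 (-0.0040) and the Tnnt2 gate (-0.039). Under the mitochondrial ceiling Nkx2-5 (0.11) and Tbx20 (0.17) turned there, as did the mesenchyme differences of Tbx5 (-0.21) and Tbx20 (0.0070) and Gata4 in the Hand1 contrast (-0.052). Without barcodes under 1% mitochondrial UMIs Hand1 from E10.5 to E12.5 (-0.084), the mesenchyme difference of Tbx20 (0.010) and atrial Gata4 (0.015) turned. The remaining turns were Tbx20 in mesenchyme at a 5000 UMI floor (0.082), atrial Gata4 with RLE (0.011) and DESeq2 (0.0096), Gata5 (0.088) and Isl1 (0.63) in the Hand1 contrast with DESeq2, Gata4 there with no filter (-0.0052), and Isl1 between cardiomyocytes and endothelium without E12.5 (-0.19).

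Leaving out 1 library ranged across 0 for Isl1 (-0.32 to 2.12) between cardiomyocytes and endothelium, Tbx20 between cardiomyocytes and mesenchyme (-0.18 to 0.022), Nkx2-5 (-0.55 to 0.078) and Hand1 (-0.83 to 1.76) between mesenchyme and endothelium, Tbx20 from E10.5 to E12.5 (-0.10 to 0.00062), Tbx5 (-0.49 to 0.052) and Isl1 (-1.33 to 0.54) in mesenchyme with stage, the endothelial differences of Hand1 (-0.38 to 1.75), Isl1 (-4.36 to 2.67) and Tbx5 (-0.99 to 0.10), the mesenchyme differences of Tbx20 (-0.22 to 0.14) and Tbx5 (-0.21 to 0.37), Nkx2-5 in the Npr3 contrast (-0.44 to 0.31), Gata5 in the Sox9 contrast (-0.47 to 1.08) and Gata4 in the Hand1 contrast (-0.036 to 0.050). It was not run for E10.5 cardiomyocytes against the rest, which then has no residual degrees of freedom.

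Over all genes the Sox9 contrast called 1244 and then 766 (DESeq2), 78 (gates doubled), 2383 (Col1a1 at 500) and 809 (without E12.5). The Hand1 contrast called 263 and then 164 (RLE), 504 (no filter), 665 (block) and 117 to 415 (1 library left out). Gates doubled gave 5232 for 8165 genes between mesenchyme and endothelium, 2707 for 5178 and 917 for 2879 with stage in endothelium and mesenchyme, 2106 for 3711 and 1231 for 3101 in their differences from cardiomyocytes, and 2116 for 5228 in the Npr3 contrast. Mesenchyme with stage called 4693 with Col1a1 at 500 and 1559 without E12.5 replicate 2, its difference 1777 without that library, and the endothelial difference 2390 without E16.5 replicate 1. The share of calls that were higher was 36.0% in the Shox2 contrast but 46.2% with RLE and 54.6% with DESeq2, 39.1% but 52.1% with DESeq2 in the atrial contrast, and 27.0% but 48.8% and 56.0% in the Hand1 contrast.

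Blocking on the library changed the calls of Gata4 between cardiomyocytes and mesenchyme, Isl1 between mesenchyme and endothelium and Gata6 in the Hand1 contrast, given above, and no other member call. Stage contrasts within a class were not run with this block, since each library belongs to 1 stage. Their fit treated the classes of 1 library as separate sums. Between stages the labels give the replicate numbers no shared origin. Same-numbered deviations correlated at -0.20 to 0.28 over 18 pairs of stages. Among hearts all 9 were positive, with 0.17 to 0.28 in cardiomyocytes, 0.12 to 0.25 in endothelium and 0.073 to 0.082 in mesenchyme. A block on the numbers, run for the stage contrasts only, changed no member call. Of the class levels recomputed, 711 moved by less than their error and 189 by more; 12 of at least 10 CPM moved over 1.5 times, all with gates doubled but Tbx5 at P3. Low counts limit Isl1 and Hand1 outside cardiomyocytes and Gata5 at E16.5.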
